A study of Mus musculus with 6 samples.

Results

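A set of 9 genes that mark GABAergic neurons are described here in the telencephalon of newborn mice without and with a forebrain deletion of Tsc1. They were listed by name, with earlier results of these data known, as the genes of GABA synthesis and vesicular loading (Gad1, Gad2, Slc32a1) and as markers of interneuron classes (Sst, Npy, Calb1, Calb2, Htr3a, Erbb4). All 9 were present among the 22651 genes of each deposited table. Messenger RNA was sequenced from 3 mice labelled TSC1 flox/flox;Emx1 +/+ (WT) and 3 labelled TSC1 flox/flox;Emx1-cre/+ (TSC1-KO), all at postnatal day 0, with 1 table per mouse. Both groups therefore carried the floxed Tsc1 alleles, and only the TSC1-KO mice carried Cre, expressed from the Emx1 locus. Emx1 is active in progenitors of the dorsal (pallial) telencephalon, which give rise to excitatory neurons and glia of the cortex, whereas most forebrain GABAergic neurons arise ventrally, from progenitors that do not express it. Whole telencephalon was used, so that cells with and without Cre were measured together.

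GABA is made from glutamate by 2 glutamate decarboxylases, GAD67 (encoded by Gad1) and GAD65 (Gad2), and is loaded into synaptic vesicles by the transporter VGAT (Slc32a1). Cortical interneurons migrate into the pallium from the ganglionic eminences. The medial eminence supplies the somatostatin (Sst) class and many cells with neuropeptide Y (Npy), and the caudal eminence supplies most cells with the serotonin receptor Htr3a and many with calretinin (Calb2). None of the 9 genes is exclusive to cortical interneurons in this tissue. Projection neurons of the striatum also use Gad1, Gad2 and Slc32a1 and many of them contain calbindin (Calb1), and calretinin is also made by Cajal-Retzius cells and olfactory bulb neurons.

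Total expected counts ranged from 14119365 to 17772865 per sample, and 3 counts corresponded to between 0.169 and 0.212 CPM (counts scaled to the library total). Tsc1, the targeted gene, was at 50.2, 32.0 and 28.4 TPM (transcripts scaled for length and library) in WT replicates 1, 2 and 3 and at 27.1, 21.7 and 22.4 TPM in TSC1-KO replicates 1, 2 and 3, a log2 fold change of −0.66 ± 0.175 (SE) with an edgeR adjusted p of 0.09998. The groups did not overlap, and the values are of the whole gene, with the exons outside the deletion and the cells without Cre included. TSC1-KO replicate 3 lay with the WT samples on the first principal component of all genes (score −3.95, against 26.5 and 30.3 for the other TSC1-KO samples and −26.3 to −7.43 for WT). Xist, the RNA of the inactive X chromosome, was at 0.48 and 0.66 TPM in replicate 3 of WT and TSC1-KO and between 442 and 509.9 TPM in the others, so that each group held samples of both sexes. Both replicates numbered 3 were thus of the same sex, and an effect of sex on the members was not tested.

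Promoter sequence was read for the 3 genes of GABA synthesis and loading, which passed the test below, and for Sst, the member with the highest TPM in WT. Each line gives the 250 bases before the start site in the mouse RefSeq promoter table (GRCm38.p6), on the strand of the gene. They lie at chr2:70561879-70562128 (plus strand) for Gad1, chr2:22622077-22622326 (plus) for Gad2, chr2:158610508-158610757 (plus) for Slc32a1 and chr16:23890845-23891094 (minus) for Sst. Capitals mark the only match to a searched motif.
Gad1: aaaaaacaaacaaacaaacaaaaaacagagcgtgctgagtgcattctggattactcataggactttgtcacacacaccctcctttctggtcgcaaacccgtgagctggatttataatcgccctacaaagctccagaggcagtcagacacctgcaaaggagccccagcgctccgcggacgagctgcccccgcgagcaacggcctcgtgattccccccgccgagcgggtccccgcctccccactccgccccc
Gad2: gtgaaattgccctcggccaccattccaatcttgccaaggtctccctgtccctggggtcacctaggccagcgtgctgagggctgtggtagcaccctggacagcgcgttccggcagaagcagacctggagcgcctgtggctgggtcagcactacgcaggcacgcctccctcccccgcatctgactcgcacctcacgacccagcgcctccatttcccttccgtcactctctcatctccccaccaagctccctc
Slc32a1: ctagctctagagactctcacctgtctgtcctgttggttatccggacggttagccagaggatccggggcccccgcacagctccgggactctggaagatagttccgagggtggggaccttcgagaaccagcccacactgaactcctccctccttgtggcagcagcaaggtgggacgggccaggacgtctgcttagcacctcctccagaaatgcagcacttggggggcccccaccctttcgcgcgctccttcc
Sst: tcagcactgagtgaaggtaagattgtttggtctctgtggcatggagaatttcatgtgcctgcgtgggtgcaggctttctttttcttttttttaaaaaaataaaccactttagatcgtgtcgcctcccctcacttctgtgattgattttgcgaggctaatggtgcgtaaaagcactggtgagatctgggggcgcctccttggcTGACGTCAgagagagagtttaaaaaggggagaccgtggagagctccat

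The capitals in the Sst sequence are TGACGTCA, the cAMP response element for which this promoter is well known. The same letters occurred in 1.55% of 32817 RefSeq promoters of this length. TAATTA, a core recognised by many homeodomain factors, was in 4.85% of them, and CAGCTG, one form of the E-box, in 13.01%. Both strands were searched, and neither TAATTA nor CAGCTG was found in the 6 member promoters in the table (the 4 shown and those of Npy and Erbb4). A match is given as a description only. The GC content was 58.0% for Gad1, 64.0% for Gad2, 62.4% for Slc32a1 and 47.2% for Sst, beside a median of 52.4% over all promoters in the table. The printed Gad1 window starts within the annotated gene (chr2:70553072-70602014, plus strand, GENCODE annotation of GRCm38), because the promoter table uses a downstream start site. The Gad2 window likewise runs past the annotated start of that gene, and the end of the Sst window nearest to the gene, with the marked letters, lies within the annotated Sst gene.

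The genes of GABA synthesis and vesicular loading were lower in TSC1-KO. All 9 members passed the filter on low counts, and 3 of 9, Gad1, Gad2 and Slc32a1, passed an adjusted p of 0.05 in edgeR, each in the direction of lower expression, where 0.659% of the 13969 genes tested were called lower. Gad1 fell to 0.561-fold of WT, Gad2 to 0.489-fold and Slc32a1 to 0.437-fold. In TPM, the 3 TSC1-KO values lay below all 3 WT values for 8 of 9 members, a pattern seen in that direction for 10.3% of genes tested. In bulk tissue, fewer cells of a type and less RNA per cell cannot be told apart.

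Gad1 makes most of the GABA of the brain and is spread through the cell body. It was at 108.6, 92.7 and 112 TPM in WT replicates 1, 2 and 3 and at 56.4, 46.3 and 76.1 TPM in TSC1-KO replicates 1, 2 and 3. Each TSC1-KO sample was below each WT sample, with replicate 2 lowest and replicate 3 highest among the TSC1-KO. The means were 104 ± 10.4 and 59.6 ± 15.2 TPM (SD, n = 3 each), and the edgeR log2 fold change was −0.83 ± 0.166 (SE, 95% interval −1.21 to −0.46, adjusted p = 0.0479).

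Gad2 encodes the isoform that is concentrated at axon terminals. The gene lies on the same chromosome as Gad1, at chr2:22622205-22693874 on the plus strand. Its values were 48.9, 49.9 and 59.3 TPM in WT and 24.6, 20.1 and 33.9 TPM in TSC1-KO, in the order of the replicates. The groups were again apart and the TSC1-KO samples kept the order seen for Gad1. The means were 52.7 ± 5.74 and 26.2 ± 7.02 TPM (SD, n = 3 each), with a log2 fold change of −1.03 ± 0.178 (SE, 95% interval −1.43 to −0.63, edgeR adjusted p = 0.0318).

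Slc32a1, at chr2:158610767-158615748 on the plus strand, had the most negative log2 fold change of the 9. It was at 47.0, 42.1 and 47.2 TPM in WT and at 16.6, 14.04 and 29.7 TPM in TSC1-KO. The WT samples lay close together, with a coefficient of variation (CV) of 6.36%, and the TSC1-KO samples were spread more widely, with a CV of 41.7%, as replicate 3 lay well above replicates 1 and 2. The log2 fold change was −1.19 ± 0.238 (SE, 95% interval −1.73 to −0.66, edgeR adjusted p = 0.0479), and 102 of the 13969 genes had a value as low or lower. An antisense gene, Gm14205, overlaps exons of Slc32a1 in the annotation, and the library kit does not mark strand, so that reads of both would be counted together. None of the other 8 members had an exon shared with another annotated gene.

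**Figure D1:**
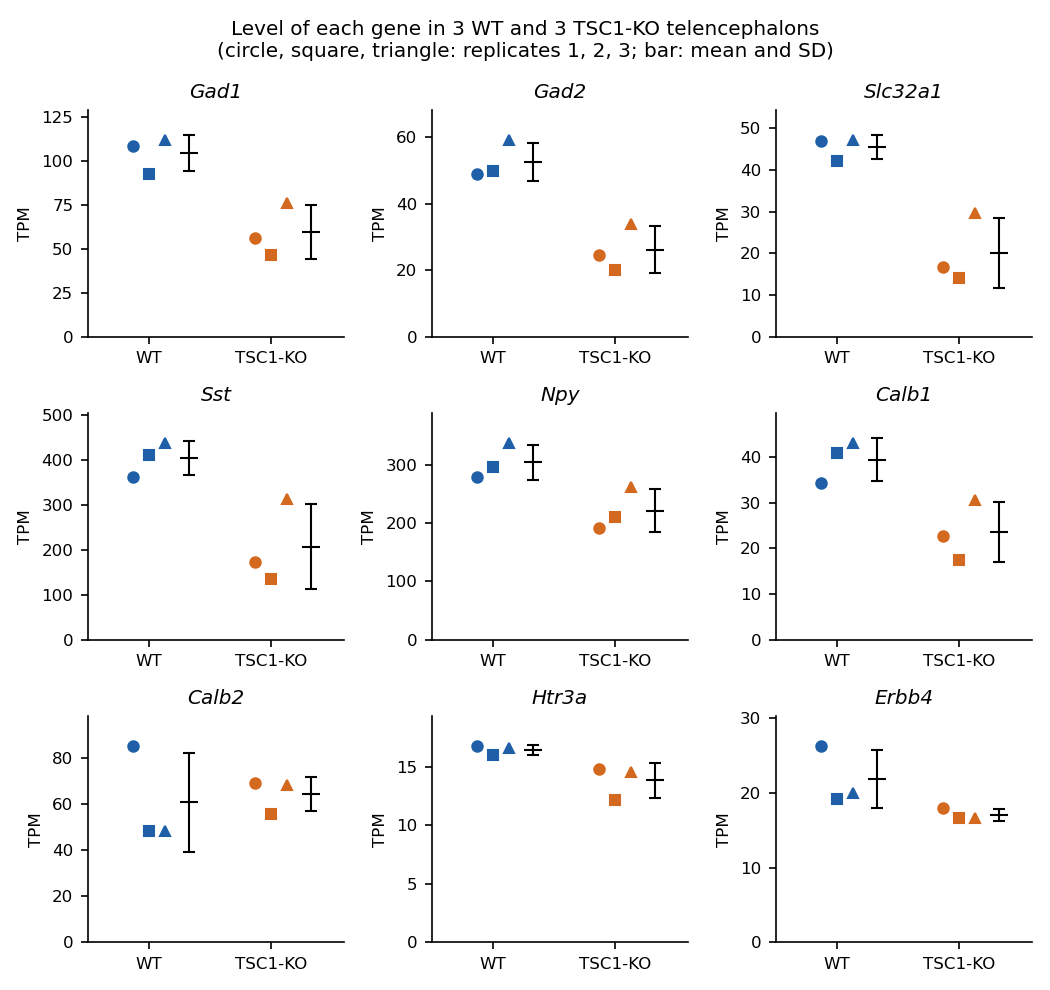
TPM of each of the 9 genes (linear axes from 0, 1 panel per gene) in the 3 WT and 3 TSC1-KO mice, with circle, square and triangle for replicates 1, 2 and 3 and the group mean and SD as a bar. The groups are apart for every gene except Calb2, and TSC1-KO replicate 3 is the highest TSC1-KO sample for 6 of 9 genes.

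These 3 calls lay near the threshold and depended on which samples were kept. DESeq2, another count test, called 5 members, with Npy and Calb1 besides these 3, and 2.28% of genes lower. Without WT replicate 2, WT replicate 3, TSC1-KO replicate 1 or TSC1-KO replicate 2, all 3 were lost, with edgeR adjusted p between 0.132 and 0.201 for Gad1, 0.119 and 0.167 for Gad2 and 0.153 and 0.201 for Slc32a1, while the number of genes called over the genome dropped from 212 to between 29 and 37. Without WT replicate 1, Gad1 (0.0528) and Slc32a1 (0.0536) were lost and Gad2 (0.0313) was retained. Without TSC1-KO replicate 3, the adjusted p was 0.00116 for Gad1, 0.000839 for Gad2 and 0.000297 for Slc32a1. The log2 fold changes without 1 sample ranged from −1.06 to −0.69 for Gad1, −1.28 to −0.88 for Gad2 and −1.61 to −0.997 for Slc32a1.

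The peptide and calcium-binding protein markers were a mixed set, none of which passed the edgeR test with all 6 samples (Npy and Calb1 passed in DESeq2). Sst encodes somatostatin, an inhibitory peptide, from a compact gene at chr16:23889573-23890958 on the minus strand. It was the most abundant member per transcript in WT, at 362, 409.5 and 437 TPM, and was at 172, 134 and 313 TPM in TSC1-KO. The lowest WT sample was above the highest TSC1-KO sample, and TSC1-KO replicate 3 lay nearer to WT than to replicate 2. The means were 403 ± 38.0 and 206 ± 94.2 TPM (SD, n = 3 each). The log2 fold change was −1.01 ± 0.265 (SE, 95% interval −1.60 to −0.41, edgeR adjusted p = 0.0960), close to that of Gad2 with a larger error.

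Npy, at chr6:49822710-49829507 on the plus strand, encodes neuropeptide Y, which many Sst cells also contain. It was at 279, 297 and 338 TPM in WT and at 191, 210.2 and 263 TPM in TSC1-KO. The groups did not overlap, and replicate 3 was again the highest of the TSC1-KO samples. Its log2 fold change was −0.51 ± 0.140 (SE, 95% interval −0.82 to −0.19, edgeR adjusted p = 0.107).

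Calb1, at chr4:15881264-15908064 on the plus strand, encodes the calcium buffer calbindin. Its values were 34.3, 41.1 and 43.2 TPM in WT and 22.7, 17.4 and 30.5 TPM in TSC1-KO. The groups were apart, with the TSC1-KO order seen for Gad1 and Gad2. The means were 39.5 ± 4.65 and 23.5 ± 6.601 TPM (SD, n = 3 each), with a log2 fold change of −0.77 ± 0.193 (SE, 95% interval −1.21 to −0.34, edgeR adjusted p = 0.0843). Sst, Npy and Calb1 were each called lower without TSC1-KO replicate 3, at log2 fold changes of −1.46, −0.66 and −1.02 and adjusted p of 0.000613, 0.0171 and 0.00649, when 3.06% of genes were called lower.

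Calb2 encodes calretinin, another calcium buffer, and lies at chr8:110137502-110168210 on the minus strand. It was at 85.4, 48.5 and 48.4 TPM in WT and at 69.1, 55.8 and 68.4 TPM in TSC1-KO. The groups overlapped, since WT replicate 1 was above and the other WT samples below every TSC1-KO sample. It was the only member with a positive log2 fold change, 0.06 ± 0.197 (SE, edgeR adjusted p = 0.904), and the 95% interval of −0.38 to 0.50 does not exclude a difference in either direction.

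Htr3a encodes a subunit of the ionotropic serotonin receptor and lies at chr9:48899213-48911099 on the minus strand. It had the lowest TPM of the members in both groups, at 16.8, 16.01 and 16.6 TPM in WT and 14.9, 12.1 and 14.6 TPM in TSC1-KO. All TSC1-KO samples were below all WT samples by a small margin. The log2 fold change was −0.28 ± 0.125 (SE, 95% interval −0.56 to 0.00, edgeR adjusted p = 0.284). The WT samples had a CV of 2.53%, which is under the 7.14% that counting alone would give at this gene's mean count, so that this small spread is not an estimate of the variation between mice.

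Erbb4 encodes the neuregulin receptor of interneurons, which acts in their migration and in the synapses they receive, and it spans the longest locus of the 9, chr1:68032186-69108059 on the minus strand. It was at 26.3, 19.2 and 20 TPM in WT and 17.97, 16.7 and 16.6 TPM in TSC1-KO. The groups were apart, although WT replicate 1 stood above the other 2 WT samples and the TSC1-KO samples lay close together. The log2 fold change was −0.38 ± 0.115 (SE, 95% interval −0.64 to −0.12, edgeR adjusted p = 0.133).

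**Figure D2:**
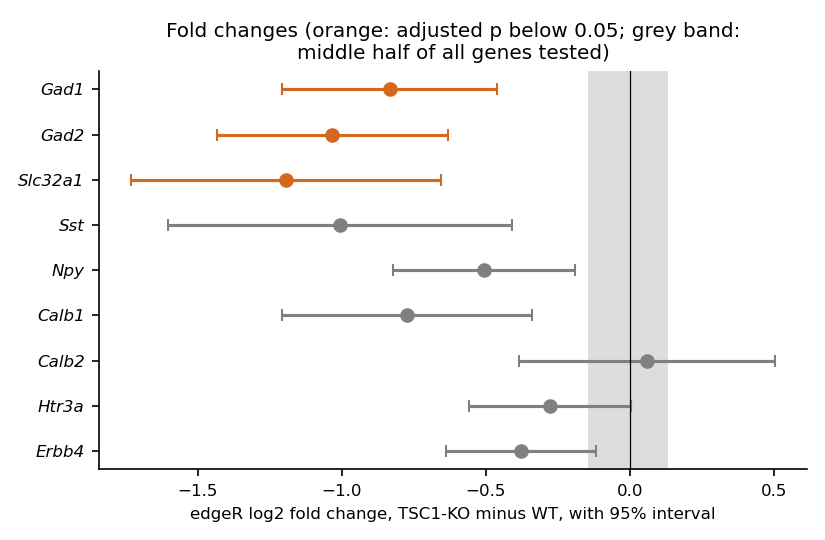
edgeR log2 fold change of TSC1-KO against WT for the 9 genes, with 95% intervals, in orange for genes that passed an adjusted p of 0.05, and a grey band for the interquartile range of all genes tested. Values run from −1.19 for Slc32a1 to 0.06 for Calb2, and only Gad1, Gad2 and Slc32a1 passed.

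The median log2 fold change of the 9 genes was −0.77, beside −0.00 over all 13969 genes (interquartile range −0.14 to 0.13). At an unadjusted p below 0.05, 7 of the 9 passed in edgeR, as did 2510 of all genes. Their levels per transcript length in WT descended in the order Sst, Npy, Gad1, Calb2, Gad2, Slc32a1, Calb1, Erbb4 and Htr3a. The ranges of neighbours overlapped only for Calb2 and Gad2 and for Slc32a1 and Calb1. In TSC1-KO, 4 neighbours in this order that were apart in WT overlapped, namely Sst with Npy (134 to 313 and 191 to 263 TPM), Gad1 with Calb2 (46.3 to 76.1 and 55.8 to 69.1 TPM), Gad2 with Slc32a1 and Calb1 with Erbb4. Slc32a1 and Calb1 overlapped in both groups, and Calb2 and Gad2 were apart in TSC1-KO.

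TSC1-KO replicate 3 was the highest TSC1-KO sample for 6 of 9 genes. Among all genes whose TSC1-KO values lay below WT, 54.9% had replicate 3 highest, and among those called lower 63.0%. As a percentage of the WT mean TPM, TSC1-KO replicates 1 and 2 averaged 33.7% and replicate 3 reached 65.3% for Slc32a1. The corresponding values were 38.0% and 77.6% for Sst, 42.4% and 64.3% for Gad2, 49.1% and 72.9% for Gad1, and 50.7% and 77.3% for Calb1. Npy was at 65.9% and 86.2%, and Htr3a at 81.9% and 88.5%. The gap between them was wider for Slc32a1 and Sst than for Htr3a, whose mean was nearest to WT among the 8 genes below it. Erbb4 departed from this order, at 79.3% in replicates 1 and 2 and 75.9% in replicate 3. For Htr3a the order held only for the average, as replicate 1 (90.2%) was above replicate 3 and replicate 2 (73.7%) below it.

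**Figure D3:**
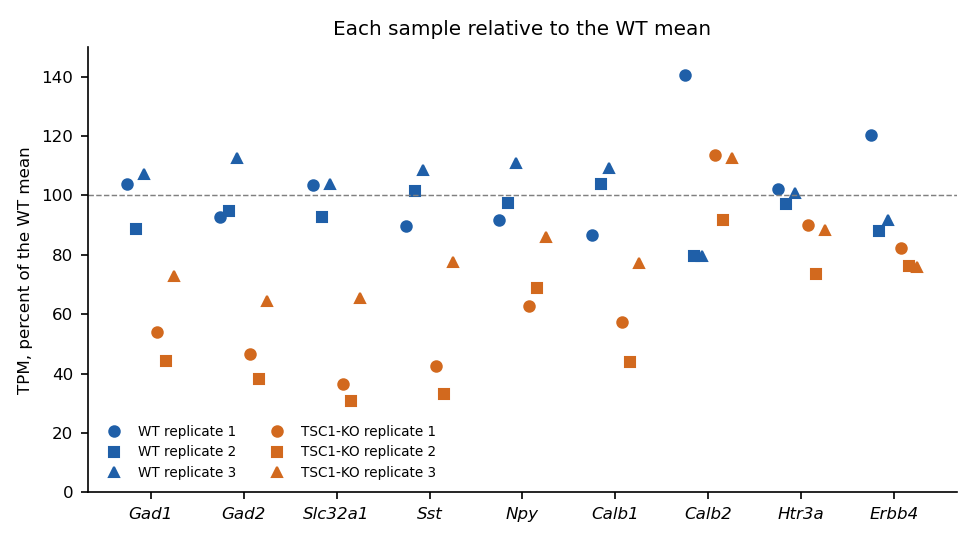
TPM of each gene in each mouse as a percentage of the WT mean of that gene (linear axis), with WT in blue, TSC1-KO in orange, circle, square and triangle for replicates 1, 2 and 3, and a dashed line at the WT mean. For Slc32a1, TSC1-KO replicate 3 lies at 65.3% and the mean of replicates 1 and 2 at 33.7%, whereas for Erbb4 all 3 TSC1-KO samples lie close together.

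Ratios between members within a sample do not depend on scaling between samples, and 6 were compared with exact two-sided permutation tests, in which 3 against 3 cannot give a p below 0.1. The ratio of Gad1 to Gad2 was 2.22, 1.86 and 1.89 in WT and 2.29, 2.30 and 2.25 in TSC1-KO. Every TSC1-KO ratio was above every WT ratio, although WT replicate 1 was nearly as high (difference 0.20 on the log2 scale, exact p = 0.1, 0.2 after adjustment over the 6 ratios). The ratio of Slc32a1 to Gad1 was 0.433, 0.454 and 0.421 in WT and 0.294, 0.303 and 0.390 in TSC1-KO. It was thus lower in each TSC1-KO sample (difference −0.42, exact p = 0.1, adjusted 0.2).

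The ratio of Npy to Sst was 0.770, 0.725 and 0.773 in WT and 1.11, 1.57 and 0.839 in TSC1-KO. Sst exceeded Npy in all WT samples and in TSC1-KO replicate 3, and Npy exceeded Sst in TSC1-KO replicates 1 and 2 (difference 0.59, exact p = 0.1, adjusted 0.2). The ratio of calretinin to calbindin, Calb2 to Calb1, was 2.49, 1.18 and 1.12 in WT and 3.04, 3.20 and 2.24 in TSC1-KO. The groups overlapped through WT replicate 1 (difference 0.91, exact p = 0.2, adjusted 0.3). Slc32a1 to Gad2 (difference −0.22, exact p = 0.3) and Htr3a to Erbb4 (0.09, exact p = 0.7) also overlapped between the groups. No ratio could pass 0.05 in this test with 3 samples a group.

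**Figure D4:**
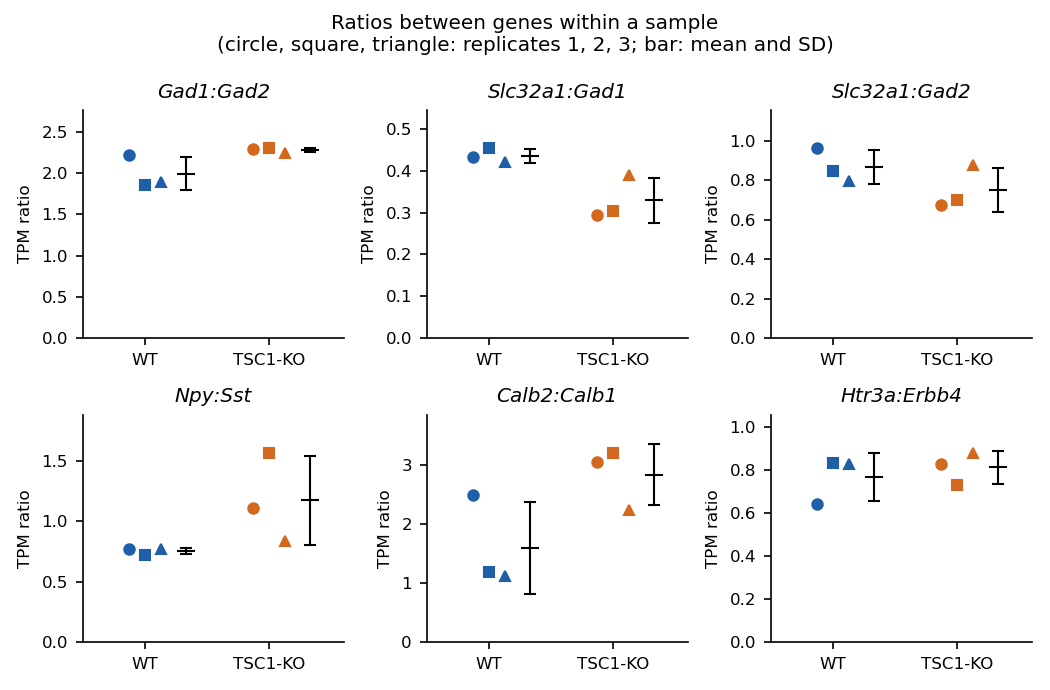
The 6 TPM ratios in each mouse (linear axes from 0), WT in blue and TSC1-KO in orange, with circle, square and triangle for replicates 1, 2 and 3 and the group mean and SD as a bar. The groups are apart for Gad1 to Gad2, Slc32a1 to Gad1 and Npy to Sst and overlap for the other 3.

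The pattern over the 6 samples was compared between genes as the root mean square (RMS) difference of log2 CPM centred on each gene's mean. Among the members, Gad1 and Gad2 were closest (0.129), followed by Slc32a1 and Sst (0.142) and Gad1 and Calb1 (0.147), and Slc32a1 and Calb2 were furthest apart (0.779). Of all genes tested, the 3 nearest to Gad1 were Fxyd7 (0.071), Tmem117 (0.097) and Sp9 (0.101). Sp9, a transcription factor of ventral forebrain GABAergic neurons, passed the test, and Fxyd7, a modulator of the sodium pump, had a log2 fold change of −0.85 with an edgeR adjusted p of 0.0604. Nearest to Gad2 were Zfp521 (0.077), Zmat4 (0.096) and Gpr83 (0.107). Zfp521 and Zmat4, both zinc finger genes, passed the test, at log2 fold changes of −0.99 and −1.01. Nearest to Slc32a1 were Wdr86 (0.064), Aoc3 (0.093) and Pbx3 (0.103). Pbx3, a homeodomain transcription factor, was at 66.9 ± 5.26 TPM in WT and 28.0 ± 13.9 TPM in TSC1-KO (SD, n = 3 each), with an edgeR adjusted p of 0.0607. Tmem117 (edgeR adjusted p = 0.153), Gpr83 (0.0905), Wdr86 (0.0686) and Aoc3 (0.137, at 0.62 TPM in WT) did not pass. These genes were picked for their likeness to a member over the same 6 samples. Fold changes and calls like those of the member follow from that choice, and both they and the distances are a description.

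Other genes of the same pathways were read from fixed lists, chosen with earlier results of these data known. Of 18 genes of GABA metabolism, transport and the inhibitory synapse, none was called lower by edgeR and 1 was called higher, where 0.859% of all genes were, with a median log2 fold change of −0.07. In either direction, 7 had an unadjusted p under 0.05 in edgeR, as had 2510 of all 13969 genes. DESeq2 called 3 and limma 1, where DESeq2 called 641 of 13127 genes with an adjusted p and limma 267 of 13844. The gene called higher was Glul (0.35, edgeR adjusted p = 0.0479), the glutamine synthetase of astrocytes, at 271, 248 and 234 TPM in WT and 335, 302 and 339 TPM in TSC1-KO. Abat, which breaks GABA down and was chosen after its values were seen, had a log2 fold change of −0.49 (edgeR adjusted p = 0.194).

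Of 9 tested ligands and partner receptors of Erbb4, 1 was called lower, where 0.659% of all genes tested were. It was Egfr, a related receptor tyrosine kinase, which fell by 0.48 on the log2 scale (edgeR adjusted p = 0.0471). Its TPM was 16.04, 14.98 and 14.3 in WT and 12.1, 9.99 and 10.7 in TSC1-KO. Of 8 tested receptors and relatives of the member peptides and of Htr3a, none was called by edgeR, DESeq2 or limma, and 0 had an unadjusted p under 0.05.

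Markers of the same and of neighbouring cell types were set beside the members. Of 17 tested markers of interneurons from the medial ganglionic eminence, 14 had a negative log2 fold change, with a median of −0.33. Only 1 was called lower by edgeR, where 0.659% of genes tested were. Lhx6, the transcription factor that specifies these cells, fell from 75.7, 82.2 and 82.8 TPM in WT to 57.2, 54.4 and 57.6 TPM in TSC1-KO (log2 fold change −0.54 ± 0.0798, SE, edgeR adjusted p = 0.0203). Unlike Gad1, Gad2, Slc32a1 and Sst, Lhx6 varied little among the TSC1-KO samples. Its call was nonetheless lost, with no gene of this list called, without WT replicate 2, WT replicate 3, TSC1-KO replicate 1 or TSC1-KO replicate 2. The summed TPM of all 18 genes of this list, tested or not, was 565 to 596 in WT and 444.5 to 448 in TSC1-KO. Its genes did not move together. Of 2 chosen after their values were seen, Tac1 was at a mean of 63.4 TPM in WT and at 6.26, 10.6 and 40.5 TPM in TSC1-KO replicates 1, 2 and 3. Satb1, 1 of 3 with a positive log2 fold change, had means of 62.3 and 77.7 TPM. The narrow range of the sum thus does not describe each gene. Of 12 tested markers of the caudal eminence none was called by edgeR or limma and 1 by DESeq2, with a median of −0.04. Over all genes, DESeq2 called 641 of 13127. An unadjusted p under 0.05 in edgeR was found for 4 of them, and for 2510 of all 13969 genes. Pvalb and Vip, which mark interneuron classes that mature after birth, did not pass the filter on low counts and were named after their values were seen.

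Among 10 transcription factors of forebrain GABAergic neurons, 9 had a negative log2 fold change (median −0.65). Of these, 2 were called lower by edgeR, where 0.659% of genes tested were. Dlx1, needed for the differentiation and migration of these neurons, fell from 146, 125 and 145 TPM to 82.6, 85.9 and 97.0 TPM (log2 fold change −0.68, edgeR adjusted p = 0.0183), and Sp9 from 20.9, 17.4 and 19.6 TPM to 9.62, 8.77 and 12.01 TPM (−0.95, adjusted p = 0.0214). The summed TPM of the list was 325 to 375 in WT and 222 to 254 in TSC1-KO. Of the list, 1 gene was called without WT replicate 2, and none without WT replicate 3, TSC1-KO replicate 1 or TSC1-KO replicate 2.

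Striatal projection neurons share the GABA genes with interneurons. Of 22 markers tested, 21 had a negative log2 fold change, with a median of −1.34. In 19, all TSC1-KO values were below WT, a pattern seen for 10.3% of genes tested. By edgeR 3 were called lower, where 0.659% of genes tested were. These were Foxp2 (−1.001), Bcl11b (−0.56) and Meis2 (−0.45), transcription factors of striatal neurons that are also found in other forebrain neurons, each with an edgeR adjusted p of 0.0479. The summed TPM was 890 to 1057 in WT and 521, 541 and 741 in TSC1-KO replicates 1, 2 and 3. Replicate 3 was thus the highest TSC1-KO sample here as well, as for Gad1, Gad2, Slc32a1 and Sst. The number of these markers called was 17 without TSC1-KO replicate 3, 4 without WT replicate 1 and 0 without WT replicate 2, WT replicate 3, TSC1-KO replicate 1 or TSC1-KO replicate 2. Over all genes, 799 were called without TSC1-KO replicate 3, 447 without WT replicate 1 and 29 to 37 in the other fits. The part of this difference in the values of the members was not tested.

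The other lists bear on which tissue and cells were sampled. All 6 choroid plexus genes had TSC1-KO values below WT (median −1.78), a pattern seen for 10.3% of genes tested. All 6 also had an unadjusted p under 0.05 in edgeR, as had 2510 of all 13969 genes. None was called by edgeR, 3 by DESeq2 and 2 by limma on log2(TPM + 1). Their summed TPM was 1176 to 2473 in WT and 31.8, 111 and 867 in TSC1-KO replicates 1, 2 and 3. Choroid plexus lies in the ventricles beside the telencephalon, and its part in the members' values was not tested. The 13 listed genes of the diencephalon that were present summed to 43.9 to 63.0 TPM in WT and 52.6 to 58.8 TPM in TSC1-KO. Of these, 6 did not pass the filter on low counts. Among the 7 tested, 0 were called by edgeR, DESeq2 or limma and 0 had an unadjusted p under 0.05. Of 10 olfactory bulb markers, 2 were called lower, where 0.659% of genes tested were. These were Th (−3.10, edgeR adjusted p = 0.0391), the enzyme of dopamine synthesis, and Pcp4l1 (−1.65, adjusted p = 0.00292). Th was at a low level throughout, at 4.04, 2.22 and 2.2 TPM in WT and 0.11, 0.11 and 0.7 TPM in TSC1-KO. Of 9 markers of Cajal-Retzius cells, which also make calretinin, Cacna2d2, a calcium channel subunit, was called lower (−0.59, adjusted p = 0.0297), with a median of −0.01 for the list.

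Markers of pallial excitatory neurons did not share the direction of the GABA genes. Of 13 tested, 10 had a positive log2 fold change (median 0.20). Mef2c, a transcription factor of cortical neurons, was called higher (0.40, edgeR adjusted p = 0.0433), where 0.859% of genes tested were. Of 11 general neuron markers, 1 was called higher, Nefl (0.38, edgeR adjusted p = 0.0479), a neurofilament subunit. Of 10 astrocyte markers, 2 were called higher, Gfap (1.09, edgeR adjusted p = 0.00683) and Aldoc (0.60, adjusted p = 0.0195). For Nefl and these astrocyte genes the share called higher over all genes tested was likewise 0.859%. In the astrocyte list, 4 genes had a positive and 6 a negative log2 fold change (median −0.06). Its summed TPM was 3050 to 3700 in WT and 3121 to 3311 in TSC1-KO. None of 8 oligodendrocyte, 10 microglia and blood, and 9 endothelium and pericyte genes was called by edgeR or limma, with medians of −0.08, −0.55 and −0.48. At an unadjusted p under 0.05 in edgeR there were 3, 6 and 6 of them, beside 2510 of all 13969 genes. DESeq2 called 2, 0 and 3, where it called 641 of 13127 genes over all. Altogether 15 of 187 list genes tested were called, where 1.52% of all genes were. The lists were chosen with earlier results of these data known, so that this contrast is not a test of enrichment.

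**Figure D5:**
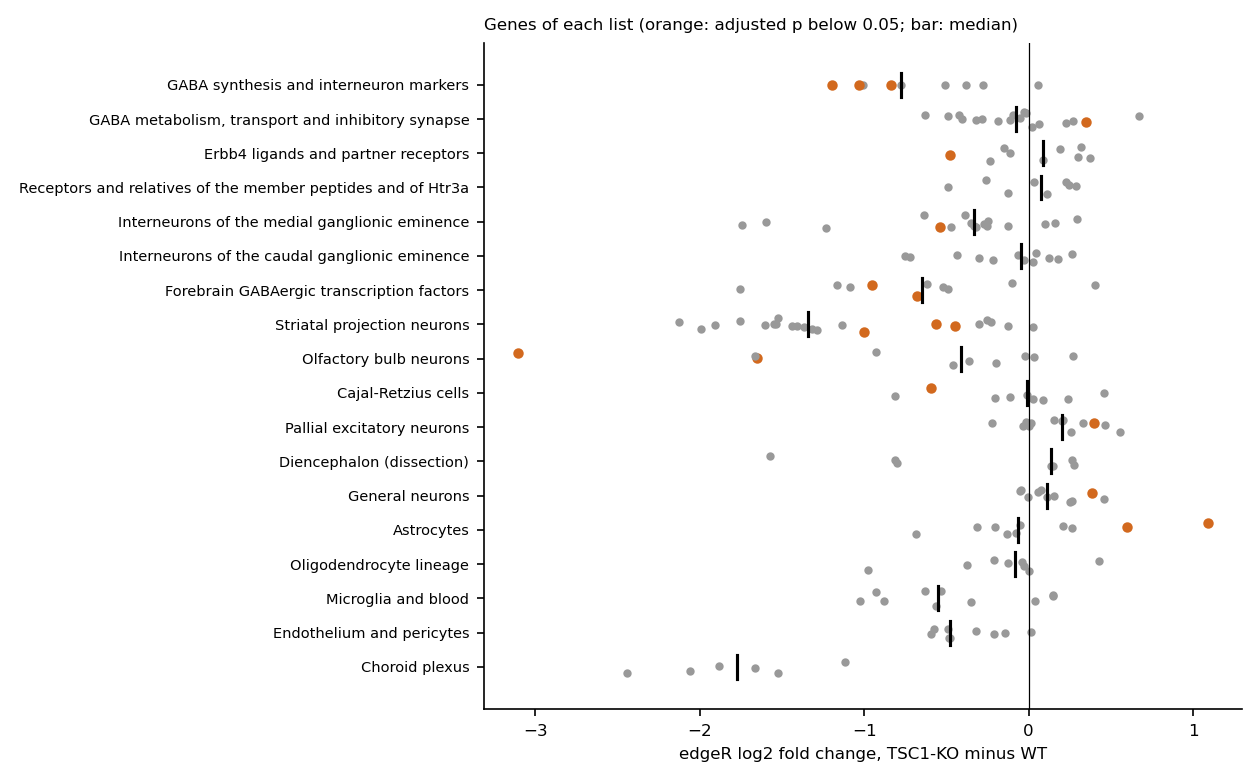
edgeR log2 fold change of TSC1-KO against WT for every tested gene of each list and for the 9 members, 1 point per gene, with genes past an adjusted p of 0.05 in orange and the list median as a bar. The median is −0.77 for the members, −0.33 for markers of the medial eminence, −1.34 for striatal projection neurons and 0.20 for pallial excitatory neurons.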

How the data were processed

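Telencephalon RNA of 3 WT and 3 TSC1-KO mice was measured, with groups from the genotype labels and replicate numbers from the titles. The authors trimmed reads from a paired-end kit that does not mark strand, mapped them on mm10 (MapSplice2) and estimated RefSeq gene abundance by RSEM 1.2.12 (RefSeq release not given in the sources used here). The deposited expected counts are RSEM's estimates of the reads of each gene, not normalized. All 54 of the members' values were whole numbers as written. The deposited TPM divides these counts by effective length and scales the sum of a sample. The deposited FPKM, lengths and effective lengths come from the same program. FPKM was not used, and effective lengths entered an alternative only. Members and lists were chosen with earlier results of these data known.

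The expected counts, rounded to integers, were fitted over all genes in edgeR 4.0.16 in R 4.3.3 (TMM factors, filterByExpr, quasi-likelihood test). A gene was called at an adjusted p (Benjamini-Hochberg) under 0.05. Levels are given in TPM, as mean ± SD. Ratios were compared with exact permutation tests (scipy 1.17.1). Promoter sequences came from a RefSeq table of GRCm38.p6 and gene positions from GENCODE on GRCm38. Scripts were tested on simulated data. Alternatives were RLE and upper-quartile factors, no filter or at least 10 counts in every sample, DESeq2 1.42.0, limma 3.58.1 on log2(TPM + 1) with and without its filter (a minimum TPM of 1 in 3 or more samples) and on log2(TPM + 0.1), effective lengths as offsets, a replicate block, and each sample left out. The study's own permutation method was not rerun.

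The text names all 9 members, Tsc1, up to 4 called genes of each list and the 3 nearest profiles of Gad1, Gad2 and Slc32a1. Other genes are named as chosen after their values were seen, apart from Xist, which served as a check of the samples. Each sample is 1 mouse, and no library was found to be deposited more than once. Depth is given in the report, and p-values measure the spread between these mice.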

Additional observations from a re-analysis of the deposited data

How the results depend on the processing

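Gad1 and Gad2 passed an adjusted p of 0.05 in 9 of the 10 alternatives that used all 6 samples, and Slc32a1 in 8. With upper-quartile factors Slc32a1 was at −1.22 (edgeR adjusted p = 0.0502). In limma without a filter on low values Gad1 was at −0.82 (0.0793), Gad2 at −1.01 (0.0574) and Slc32a1 at −1.21 (0.0760), and no member was called (0 of 9). DESeq2 called 5 members, with Npy at −0.51 (0.0192) and Calb1 at −0.77 (0.00230) added, when it called 2.28% of genes lower. Over all genes, 346 were called without a filter, 641 by DESeq2 and 95 by limma without a filter, and 29, 39 and 7 list genes. Striatal genes called numbered 8 without a filter, 6 by DESeq2, 7 by limma, 0 by limma without a filter and 1 with upper-quartile factors. Over all genes, limma called 267, and 179 were called with upper-quartile factors. Without a filter, 2 choroid plexus, 2 endothelium and pericyte and 1 caudal eminence genes were called, and without TSC1-KO replicate 3, 5 choroid plexus genes. Leaving out 1 sample gave 0 to 6 members, 29 to 799 genes and 1 to 57 list genes called. The log2 fold changes then ranged from −1.06 to −0.69 for Gad1, −1.28 to −0.88 for Gad2, −1.61 to −0.997 for Slc32a1, −1.46 to −0.78 for Sst, −0.66 to −0.40 for Npy, −1.02 to −0.60 for Calb1, −0.46 to −0.25 for Erbb4 and −0.33 to −0.20 for Htr3a. Calb2 ranged from −0.0755 to 0.36, with its sign turned without WT replicate 2 (−0.0755) or WT replicate 3 (−0.0592), and the log2 ratio difference of Htr3a to Erbb4 from −0.0387 to 0.16, turned without WT replicate 1. The causes were not tested. Removing a sample also lowers the residual degrees of freedom.

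Both groups carry replicate numbers 1 to 3, but nothing in the labels ties them to a litter or batch. Deviations from the group means correlated at 0.267, −0.133 and 0.318 for the same-numbered samples and from −0.394 to 0.211 for the others. These correlations do not settle whether the numbers mark pairs. Without a label that says so, the main fit did not take them as pairs. Both replicates numbered 3 lacked Xist. A fit with the replicate number as a block called 6 members, 551 genes and 53 list genes, with Sst at −1.08 (0.0260), Npy at −0.52 (0.0204) and Calb1 at −0.80 (0.0308), when 1.99% of genes were called lower. It called 16 striatal, 5 choroid plexus and 2 endothelium and pericyte genes.

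With 3 mice a group, an exact permutation test cannot give a p below 0.1, and the 95% interval of the fold of TSC1-KO over WT ran from 0.766 to 1.42 for Calb2. The counts of all members were far above 3 in every sample.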
